A study of Mus musculus with 10 samples.

Results

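Cdk6, Cdk4, Ccnd1, Ccnd2 and Ccnd3 encode the kinases and regulatory subunits of cyclin D complexes, and they were measured in BCR-ABL+ mouse bone marrow colonies that lacked CDK6 or carried a CDK6 protein without kinase activity. All probes whose transcript accession maps to these 5 genes were taken, which gave 5 of 45616 genes and 10 of 56605 probes. Cdk6 and Ccnd1 had 1 probe each, Ccnd3 had 2, and Cdk4 and Ccnd2 had 3 each. On every array all 10 were well above background in either channel, none was saturated, and all 10 passed the filter on dim probes. Among the 22008 genes tested the 5 genes are each represented by their brightest probe.

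The colonies came from bone marrow of mice 6 weeks of age. The marrow was exposed to retrovirus, and colonies were taken after 10 days in methylcellulose to which no growth factor had been added. BCR-ABL, the fused tyrosine kinase that drives chronic myeloid leukaemia and some acute lymphoblastic leukaemias, was in all groups, wild type included, per the labels. The groups were 4 Cdk6-/- samples, 4 Cdk6-K43M samples (a lysine-to-methionine change in the ATP-binding site that leaves the protein without kinase activity) and 1 pool of 4 Cdk6+/+ samples. Each mutant sample was labelled with Cy5 and hybridised with the pool in Cy3 on its own array, and on 1 further array per genotype the dyes were exchanged, with its 4 RNAs pooled in Cy3 against wild type in Cy5. The labels call the samples biological replicates and describe RNA from individual colonies, but do not say whether samples came from separate animals or cultures, so p-values measure only the spread between these samples. The wild-type pool has no spread of its own in any comparison with it. All values below are log2 ratios of mutant over wild-type pool, with the sign of the swapped arrays reversed, unless another quantity is named.

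D-type cyclins bind CDK4 or CDK6 in the G1 phase of the cell cycle, and the complexes phosphorylate the retinoblastoma protein RB and its relatives, which releases E2F transcription factors. INK4 proteins inhibit the kinases alone, and CIP/KIP proteins such as p21 and p27 bind the complexes. CDK6 is the kinase of this pair that is typically prominent in blood cells, and it also acts on transcription. Lymphoid precursors mainly use cyclin D2 and cyclin D3, whereas cyclin D1 is known from many non-lymphoid cells. Precision is limited by the small number of arrays.

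In the mutant channel 46.9 to 49.9% of probes were well above background. All 14 B-lineage progenitor markers, among them Cd79a and Vpreb1, were well above background on every array in either channel. The signal summed over 12 measured markers of granulocytes, monocytes and macrophages was 8104 to 14860 in the Cdk6-/- samples, 10770 to 60480 in the Cdk6-K43M samples and 21510 to 24590 in the wild-type channel. Cdk6-K43M replicate 4 held the highest of these values, and the other 3 Cdk6-K43M samples had 10770 to 20010. Of the 14 markers of that list, 6 (Elane, Lyz2, Csf1r, Itgam, Cd68 and Lgals3) were well above background in all 10 mutant channels and 11 in all 10 wild-type channels. S100a9 and Cd14 were so in 8 and 7 of the 10 mutant channels, and S100a8, Camp and Mpo in 1 mutant channel each against 10 of wild type. Ngp was so in 0 mutant and 9 wild-type channels, Fcgr1 in 2 of each and Ltf in none. Of 10 T and NK cell markers, 6 (Cd3e, Cd3d, Cd4, Thy1, Lck and Cd2) were well above background on every array in either channel, and Cd3g, Cd8a and Ncr1 on none. The summed signal of the 6 was 12610 to 18230 in the Cdk6-/- samples, 11270 to 28630 in the Cdk6-K43M samples and 18960 to 21200 in the wild-type channel. These 6 genes did not move alike. Thy1 rose by 2.14 in Cdk6-/- (adjusted p = 0.0179) and by 2.79 in Cdk6-K43M (adjusted p = 0.00171). Cd2 fell by 1.19 (adjusted p = 0.0348, and 0.0613 with median centring) and 1.32 (adjusted p = 0.00962). Lck rose in Cdk6-/- (0.54, adjusted p = 0.0244) and did not pass in Cdk6-K43M (0.16, adjusted p = 0.355). Cd3e, Cd3d and Cd4 passed in neither mutant, and the list medians were -0.02 and -0.0043. Of 5 stromal and endothelial markers Pecam1 was well above background on every array, Cxcl12 in 1 channel of each kind, and Col1a1, Col3a1 and Cdh5 on none, as were all 4 mast cell and basophil markers. In bulk RNA, fewer cells of a type and less RNA per cell cannot be told apart.

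Against wild type 1 of the 5 genes passed the test in Cdk6-/- (Cdk6, lower), where 7.24% of all genes tested passed, 3.39% higher and 3.85% lower. In Cdk6-K43M 2 of 5 passed (Cdk6 and Ccnd1, both higher), where 20.1% of all genes passed, 9.79% higher and 10.3% lower. None of the 5 passed between the genotypes, where 0.513% of all genes did. With median centring in place of loess the share of called genes that were higher went from 46.8% to 63.5% in Cdk6-/- and from 48.7% to 87.9% in Cdk6-K43M, and from 51.3% to 65.9% between the genotypes. The median of all genes moved from -0.01 to 0.11 in Cdk6-K43M under that centring. Cdk6 and Ccnd1 kept their direction under it in every comparison, and the other 3 genes are given with their values below where they did not.

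**Figure D1:**
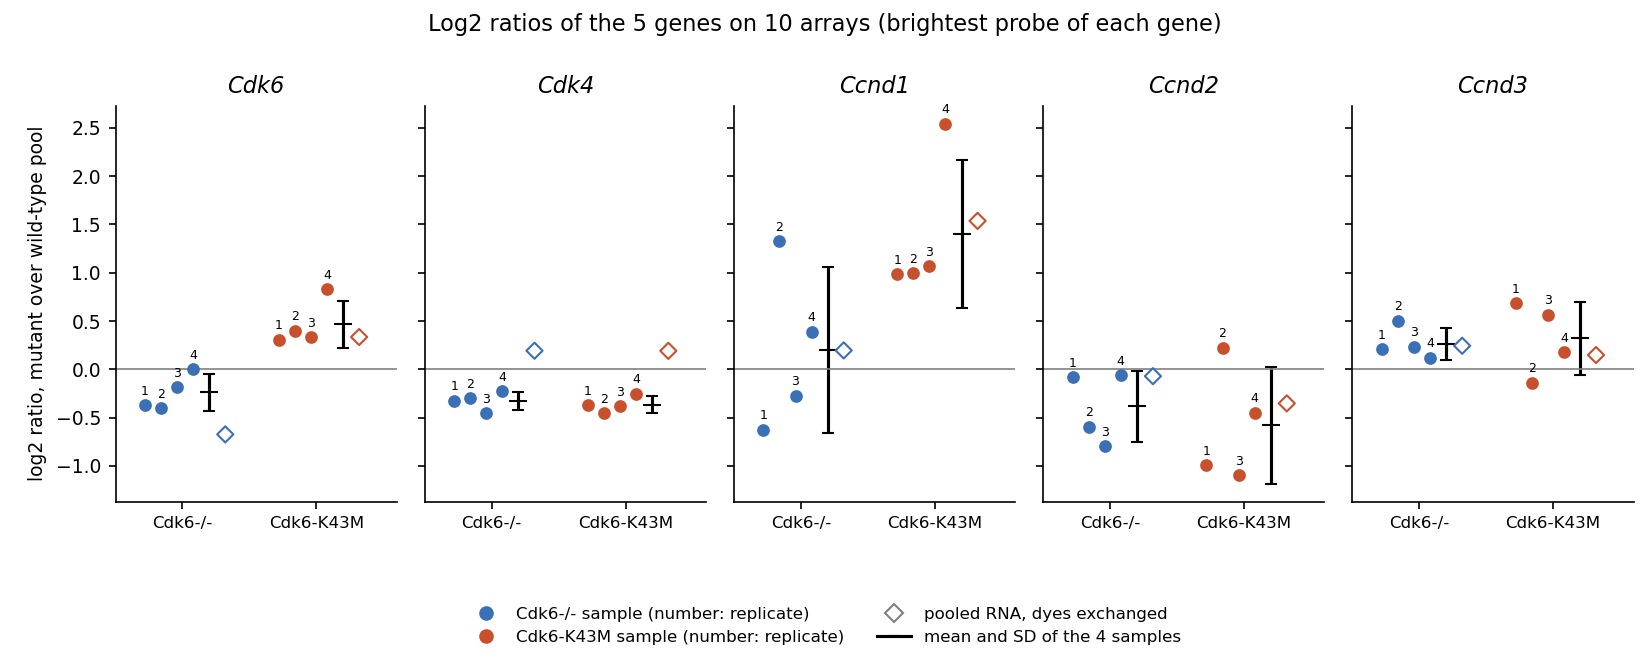
Log2 ratio of mutant over wild-type pool (y axis) for the brightest probe of each of the 5 genes, with 1 filled point per sample (blue Cdk6-/-, red Cdk6-K43M, numbered by replicate), open diamonds for the pools with exchanged dyes and black bars for the mean and SD of the 4 samples. Cdk6 separates the genotypes, the 4 Ccnd1 values of Cdk6-K43M lie between 0.99 and 2.54, and the diamonds of Cdk4 lie above 0 while all its filled points lie below.

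Cdk6 was lower than wild type in Cdk6-/- and higher in Cdk6-K43M. Its probe, A_66_P113861 (NM_009873), had ratios of -0.37, -0.40, -0.18 and 0.0024 in Cdk6-/- replicates 1 to 4, and -0.67 in the swapped pool. In Cdk6-K43M it had 0.31, 0.40, 0.33 and 0.83, and 0.33 in the swapped pool. The 2 genotypes did not overlap, which held for 8.17% of all genes. The fitted change was -0.41 (SE 0.0988, adjusted p = 0.0368) in Cdk6-/- and 0.35 (SE 0.0988, adjusted p = 0.031) in Cdk6-K43M. Between the genotypes the difference was 0.70 (SE 0.14, adjusted p = 0.089), and an exact two-sided permutation test over the 8 samples gave p = 0.0286, the smallest p this design allows (0.143 after adjustment over the 5 genes). Within slides 1, 2 and 3 the difference was 0.68, 0.70 and 0.73. The sources used here do not place the probe inside or outside the deletion, so a remaining signal in Cdk6-/- does not check the labels.

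The size of the Cdk6 ratios moved with the treatment of the spot background. Net signals, the spot's median minus its local background in scanner units, ran from 49 to 82 for the Cdk6-/- samples and from 135 to 227.5 for the Cdk6-K43M samples in Cy5, and from 34 to 54.5 for wild type in Cy3. These lie near the offset of 50 that was added to both channels before the logarithm. With Agilent's processed signals, to which no such offset is added, the ratios were -0.81, -0.84, -0.84 and -0.27 in Cdk6-/- and 0.93, 0.76, 0.59 and 1.49 in Cdk6-K43M. Replicate 4 was the highest sample of each genotype in both versions. The genotypes then differed by 1.63 (adjusted p = 0.0318; over 11 alternative settings the adjusted p ran from 0.0154 to 0.117 and the difference from 0.70 to 1.63). The direction of both changes from wild type was the same in all settings tried, whereas neither call held in all of them. The adjusted p over 13 settings ran from 0.0135 to 0.551 in Cdk6-/- and from 0.00751 to 0.427 in Cdk6-K43M. Leaving out Cdk6-/- replicate 1, 2 or 3 ended the call in Cdk6-/- (adjusted p = 0.0964, 0.0826 and 0.0519, respectively), as did the fits with slide as a fixed term (adjusted p = 0.0727) and without either swapped pool (adjusted p = 0.0803 and 0.551). The call in Cdk6-K43M was kept when any 1 sample was left out (adjusted p = 0.0211 to 0.0472), and was lost without an offset (adjusted p = 0.0572), with errors widened for the pool (adjusted p = 0.179) and without the Cdk6-K43M swapped pool (adjusted p = 0.427).

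**Figure D2:**
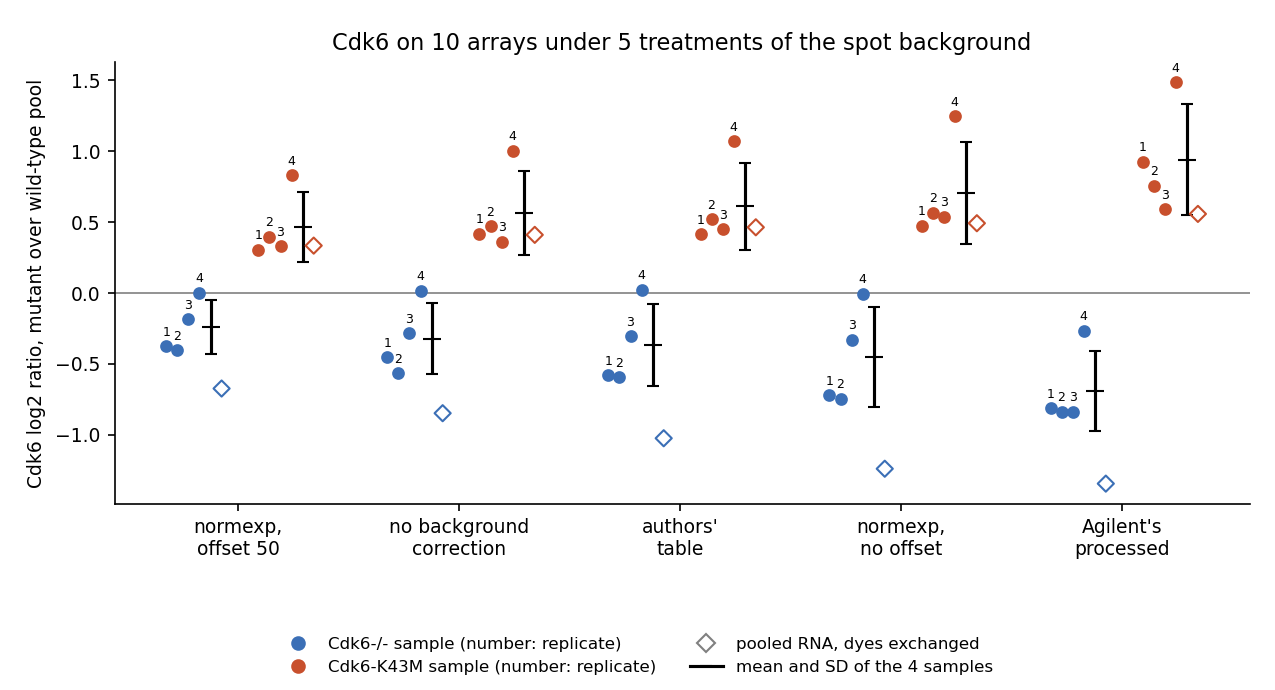
Cdk6 log2 ratio of mutant over wild-type pool (y axis) on the 10 arrays under 5 treatments of the spot background (x axis), with filled points for samples (numbered by replicate), open diamonds for swapped pools and bars for mean and SD of 4 samples. The genotypes stay apart under each treatment, while the distance between them is smallest with the offset of 50 and largest with Agilent's processed signals.

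Cdk4, the close relative of Cdk6 that binds the same cyclins, did not pass in either mutant. Its brightest probe, A_55_P2163143, had -0.33, -0.30, -0.45 and -0.23 in the Cdk6-/- samples and -0.37, -0.46, -0.38 and -0.25 in the Cdk6-K43M samples. All 8 values lie below 0 and the genotypes overlap. On the swapped arrays the sign was the opposite, with 0.19 in each genotype. The fit with a dye term gave -0.06 in Cdk6-/- (95% interval -0.18 to 0.05, adjusted p = 0.504) and -0.09 in Cdk6-K43M (-0.21 to 0.02, adjusted p = 0.249). The genotypes differed by -0.04 (95% interval -0.22 to 0.14, adjusted p = 0.857). With median centring the Cdk6-K43M value was 0.19 (adjusted p = 0.0649) and the difference 0.17, and with the mean of the 3 probes they were 0.0016 and 0.0073. The intervals are those of the brightest probe after loess, and both median-centred values given here lie outside them.

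The dye effect of Cdk4, Cy5 over Cy3 with the genotypes in the model, was -0.27 (SE 0.0406, adjusted p = 0.00377). A dye effect passed in 6.51% of all genes and in none of the other 4 genes here. The other probes of Cdk4 gave -0.25 for A_55_P1998188 (adjusted p = 0.0063) and -0.20 for A_55_P2166639 (adjusted p = 0.0319). Without the swapped arrays and the dye term, Cdk4 was called lower in Cdk6-/- (-0.33, adjusted p = 0.00712; range over 13 settings 0.00712 to 0.948) and in Cdk6-K43M (-0.37, adjusted p = 0.00233; range 0.00233 to 0.988). That setting leaves dye and genotype in 1 coefficient.

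**Figure D3:**
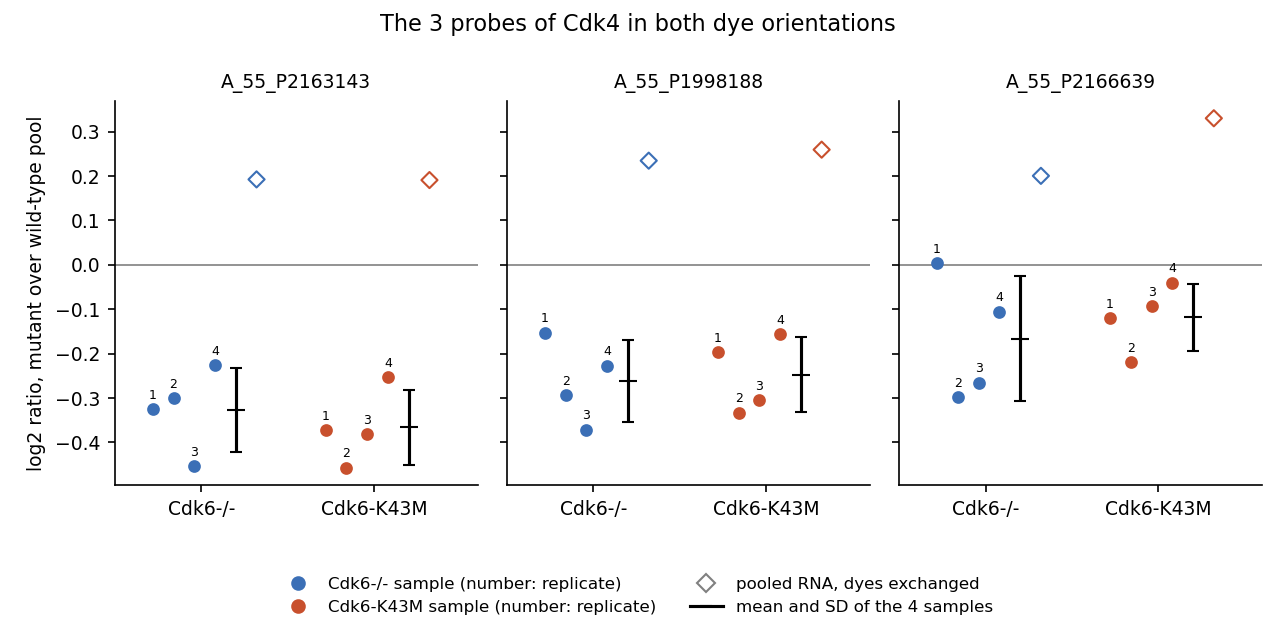
Log2 ratio of mutant over wild-type pool (y axis) for the 3 probes of Cdk4 (panels), with filled points for the samples in Cy5 (numbered by replicate), open diamonds for the pooled RNA in Cy3 and bars for mean and SD of 4 samples. In each panel and genotype the diamond lies above all 4 filled points, for the brightest probe at 0.19 against -0.46 to -0.23.

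Relative to Cdk4, Cdk6 was higher in every Cdk6-K43M sample than in any Cdk6-/- sample. Taken singly, 8.17% of all genes separated the genotypes, in either direction. Cdk6 minus Cdk4 was -0.05, -0.10, 0.27 and 0.23 in the Cdk6-/- samples and 0.68, 0.86, 0.71 and 1.08 in the Cdk6-K43M samples. The means differed by 0.74, against 0.70 for Cdk6 alone, and the exact two-sided permutation test gave the same p of 0.0286, the smallest possible. Cdk4 differed by -0.04, so this is the Cdk6 difference over again, which did not pass over all genes. It is a difference of ratios to wild type and gives no relative abundance of the kinases.

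Promoter sequence is shown for both kinases because CACGTG, the E-box to which the transcription factor MYC binds with its partner MAX, occurs in each, and because Myc, described below, fell in Cdk6-/-. The windows are the 250 bases before the annotated start, from RefSeq on the GRCm38.p6 assembly, plus strand, 5′ to 3′. They lie at chr5:3343643-3343892 for Cdk6 and chr10:127063285-127063534 for Cdk4, and capitals mark CACGTG.
Cdk6: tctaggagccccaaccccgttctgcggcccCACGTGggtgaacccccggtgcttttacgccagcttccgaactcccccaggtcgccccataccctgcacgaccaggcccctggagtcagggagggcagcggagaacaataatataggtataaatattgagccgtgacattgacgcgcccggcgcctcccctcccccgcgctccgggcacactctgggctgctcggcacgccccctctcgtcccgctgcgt
Cdk4: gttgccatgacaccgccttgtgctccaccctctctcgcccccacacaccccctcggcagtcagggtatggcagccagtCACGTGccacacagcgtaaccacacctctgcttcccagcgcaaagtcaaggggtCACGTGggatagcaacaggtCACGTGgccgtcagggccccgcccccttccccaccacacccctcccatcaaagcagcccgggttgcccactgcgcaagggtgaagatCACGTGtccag
Cdk6 has 1 match, which begins 220 bases before the start, and Cdk4 has 4, which begin 172, 118, 98 and 11 bases before it. The motif reads the same on both strands and occurs in 6.02% of 32851 such windows. The STAT5 motif TTCNNNGAA (7.02% of windows) and the E2F motifs TTTGGCGC (0.417%) and TTTCCCGC (0.895%), searched on both strands, are in neither window. The SP motif CCGCCC (32.7%) has 1 match in Cdk4 and 0 in Cdk6. In the 2 windows of Ccnd3 the search found 0 matches of CACGTG and of the STAT5 and E2F motifs, and 2 and 1 of CCGCCC. Windows of Ccnd1 and Ccnd2 were not analysed here. These are matches of letters in windows of this length and say nothing of binding in these cells. Whether the level of Myc bears on Cdk6 or Cdk4 was not tested.

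Ccnd1, which encodes cyclin D1, was higher than wild type in Cdk6-K43M and spread widely between samples. Its probe, A_66_P111562, had 0.99, 0.99, 1.07 and 2.54 in the Cdk6-K43M samples and 1.54 in the swapped pool. In Cdk6-/- it had -0.63, 1.32, -0.27 and 0.39, with 0.20 in the swapped pool. All 5 Cdk6-K43M arrays lie above 0, and Cdk6-/- replicate 2 lies above 3 of the 4 Cdk6-K43M samples. The fitted change was 1.45 in Cdk6-K43M (SE 0.322, 2.72-fold, adjusted p = 0.0119) and 0.22 in Cdk6-/- (SE 0.322, adjusted p = 0.714). The SD between samples, 0.858 in Cdk6-/- and 0.764 in Cdk6-K43M, was larger than that of 99.1% and 97.7% of all genes.

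The genotypes differed in Ccnd1 by 1.19 (95% interval 0.11 to 2.27, adjusted p = 0.315), and the exact permutation test gave p = 0.114 (0.286 over the 5 genes), so the difference did not pass. It was 1.61 and 1.71 on slides 1 and 2 and -0.26 on slide 3, which holds Cdk6-/- replicate 2. Without that sample the Cdk6-/- change was -0.02 (adjusted p = 0.981). The increase in Cdk6-K43M kept its call when any 1 sample was left out (1.21 to 1.53, adjusted p = 0.00584 to 0.0197). It lost it with standard errors widened for the unmeasured spread of the pool (adjusted p = 0.0972) and without the Cdk6-K43M swapped pool (1.39, adjusted p = 0.186).

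The sample highest in Ccnd1 within each genotype was also the highest in summed myeloid signal. Cdk6-K43M replicate 4, with a Ccnd1 net signal of 1592 against 448 to 473 in the other 3 samples, had the summed myeloid signal of 60480 and a summed erythroid and megakaryocyte signal of 1785 against 376.3 to 446.3. Cdk6-/- replicate 2, with a Ccnd1 net signal of 616 against 74 to 185, had the highest myeloid signal of its genotype, 14860 against 8104 to 10030. The other samples did not keep this order. Cdk6-K43M replicates 1 and 3 had myeloid signals of 11370 and 10770, below the wild-type channel, with Ccnd1 at 0.99 and 1.07. Cdk6-K43M replicate 2 had a myeloid signal of 20010 with Ccnd1 at 0.99. Cdk6-/- replicates 1, 3 and 4 had myeloid signals of 8104, 10030 and 8477 with Ccnd1 at -0.63, -0.27 and 0.39. The part of other cell types in the Ccnd1 values was not tested.

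Ccnd2, which encodes cyclin D2, was below wild type in 7 of 8 samples on its brightest probe and did not pass. Probe A_55_P2917114 had -0.08, -0.59, -0.80 and -0.06 in Cdk6-/- and -0.99, 0.22, -1.09 and -0.45 in Cdk6-K43M. The swapped pools had -0.07 and -0.35. Cdk6-K43M replicate 2 is the sample above 0, replicates 1 and 3 are the lowest of all, and the genotypes overlap. The fitted change was -0.24 in Cdk6-/- (SE 0.201, adjusted p = 0.496) and -0.45 in Cdk6-K43M (SE 0.201, adjusted p = 0.146). Without Cdk6-K43M replicate 2 the latter was -0.62 and passed (adjusted p = 0.0242; range over samples left out 0.0242 to 0.283). The genotypes differed by -0.19 (95% interval -0.87 to 0.48, adjusted p = 0.807), with values of -0.91, 0.32 and -0.50 on slides 1, 2 and 3; the difference was 0.025 with median centring and 0.00074 with the mean of the 3 probes.

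The probes of Ccnd2 did not move alike in Cdk6-K43M. Probe A_65_P18532 (XM_006505459) had -0.44, 0.80, -0.56 and 0.13 in the Cdk6-K43M samples, so it was shifted up in each of them by nearly the same amount. Its ratio minus that of the brightest probe was 0.553, 0.574, 0.532 and 0.582 (mean 0.56, SD 0.0227, n = 4), and 0.475 in the swapped pool. In Cdk6-/- the same difference was 0.066, -0.249, 0.158 and 0.039 (mean 0.0034, SD 0.176, n = 4), and -0.149 in the swapped pool. The Cdk6-K43M values lie within a range of 0.05 although Ccnd2 itself ranged from -1.09 to 0.22 in these samples.

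A fit of such differences over the 6169 probes that share a gene with a brighter probe gave 0.51 for A_65_P18532 in Cdk6-K43M against wild type (SE 0.064, adjusted p = 0.000585), where 13.9% of probes passed. In Cdk6-/- it gave -0.06 (SE 0.064, adjusted p = 0.658), where 2.4% passed. Between the genotypes the difference was 0.56 (SE 0.0943, adjusted p = 0.0323), where 0.632% passed, and the exact permutation test gave the smallest possible p of 0.0286. This comparison was added after the values were seen. Leaving out any 1 sample moved the adjusted p between the genotypes to between 0.0523 and 0.101. It was 0.0628 with slide as a fixed term, 0.0636 with Agilent's processed signals and 0.0544 with the authors' deposited values. It was 0.0714 without an offset and 0.0705 with a replicate block. It passed without background correction (0.0427), with median centring (0.0358) and with slide as a block (0.0286). The difference stayed between 0.473 and 0.609. The third probe, A_52_P53906, differed from the brightest by 0.193 to 0.235 in Cdk6-K43M and 0.066 to 0.302 in Cdk6-/-, which overlap (difference between the genotypes 0.03, adjusted p = 0.97). The sources used here do not say which exons or ends of the transcript the probes read.

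**Figure D4:**
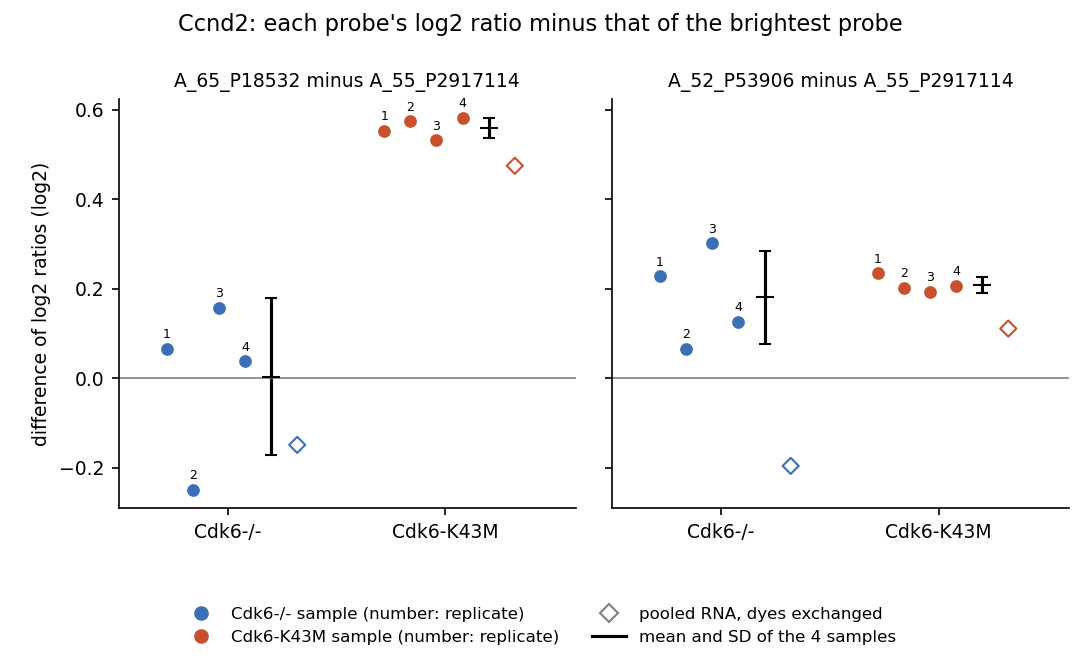
Log2 ratio of each of 2 Ccnd2 probes minus that of the brightest Ccnd2 probe on the same array (y axis), with filled points for samples (numbered by replicate), open diamonds for swapped pools and bars for mean and SD of 4 samples. In the left panel the Cdk6-K43M samples lie at 0.532 to 0.582 and the Cdk6-/- samples at -0.249 to 0.158; in the right panel the genotypes overlap.

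Ccnd3, which encodes cyclin D3, was above wild type in 7 of 8 samples on its brightest probe and did not pass. Probe A_55_P2041075 had 0.21, 0.50, 0.23 and 0.12 in Cdk6-/- and 0.68, -0.14, 0.57 and 0.18 in Cdk6-K43M, and the swapped pools had 0.24 and 0.15. Cdk6-K43M replicates 1 and 3 are the highest samples, replicate 2 is the lowest, and the genotypes overlap. The fitted change was 0.23 in Cdk6-/- (SE 0.121, adjusted p = 0.265) and 0.26 in Cdk6-K43M (SE 0.121, adjusted p = 0.17). In Cdk6-K43M it passed without replicate 2 (0.35, adjusted p = 0.0422; range over samples left out 0.0422 to 0.33) and with median centring (0.59, adjusted p = 0.0119; range over 13 settings 0.0119 to 0.459). The genotypes differed by 0.06 (95% interval -0.35 to 0.46, adjusted p = 0.917). The second probe, A_55_P2918958, had 0.04, 0.38, 0.09 and -0.17 in Cdk6-/- and 0.46, -0.33, 0.56 and -0.02 in Cdk6-K43M, which is the same order of samples in Cdk6-/- and, with replicates 1 and 3 exchanged, in Cdk6-K43M.

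Ccnd2 and Ccnd3 varied in opposite directions between samples. Over the 8 samples Pearson's r was -0.874 (permutation p = 0.00662, 0.0662 after adjustment over the 10 pairs of the 5 genes) and Spearman's rho was -0.929 (permutation p = 0.00223). After the mean of each genotype was taken away r was -0.876, and without the 2 samples farthest from the median of Ccnd2, Cdk6-K43M replicates 2 and 3, it was -0.749. The relation did not pass the threshold after adjustment over the pairs. Both ratios of a point come from 1 array and share its wild-type channel. Of the other 9 pairs, Cdk6 and Ccnd1 had the next largest r, 0.74 (permutation p = 0.0338, adjusted 0.169; rho 0.476, p = 0.243), and the rest had unadjusted p of 0.452 or more. With 4 samples in each genotype, no correlation is given within one.

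**Figure D5:**
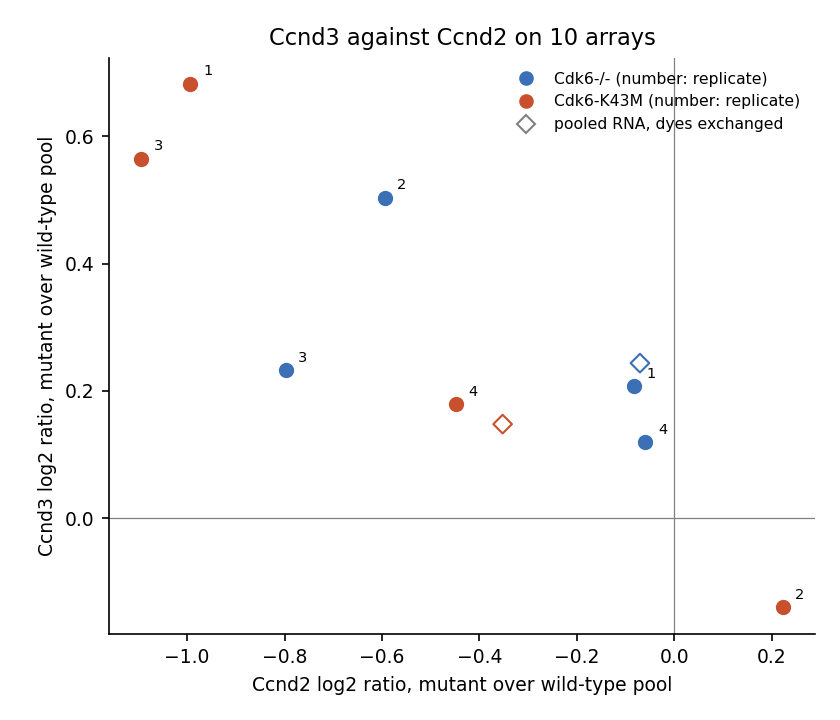
Log2 ratio of Ccnd3 (y axis) against that of Ccnd2 (x axis), mutant over wild-type pool, with 1 filled point per sample (blue Cdk6-/-, red Cdk6-K43M, numbered by replicate) and open diamonds for the swapped pools. Cdk6-K43M replicates 1 and 3 combine the lowest Ccnd2 with high Ccnd3, and replicate 2 has the highest Ccnd2 (0.22) and the lowest Ccnd3 (-0.14).

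Among the genes around these complexes, none of the 77 measured genes of 7 lists passed between the genotypes. The counts against wild type below are to be read beside the shares of all genes that passed, 3.39% higher and 3.85% lower in Cdk6-/-, and 9.79% higher and 10.3% lower in Cdk6-K43M. Of 7 measured inhibitors 1 fell in Cdk6-/- and 6 did not pass, with a list median of -0.66 against 0.0014 over all genes. Cdkn1a, which encodes p21, fell by 0.80 (SE 0.138, adjusted p = 0.0119). In Cdk6-K43M 1 of 7 fell, Cdkn2d, which encodes the INK4 protein p19, by 0.39 (adjusted p = 0.0363; -0.16 and adjusted p = 0.423 with median centring), with a list median of -0.19 against -0.01; 1 gene of 7 is near the 10.3% of all genes that fell there. Cdkn1a had -0.19 there (adjusted p = 0.372) and Cdkn2d -0.29 in Cdk6-/- (adjusted p = 0.141).

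Of 7 genes for the assembly and activation of the kinases, none passed in Cdk6-/- (list median -0.07) and 1 rose in Cdk6-K43M, Cdk7 (0.22, adjusted p = 0.0109), the catalytic subunit of the CDK-activating kinase, with a list median of -0.05 that became 0.26 with median centring; 1 of 7 is near the 9.79% of all genes that rose there. Of 9 measured genes of D-type cyclin turnover, Cul4a, a ubiquitin ligase scaffold, rose in Cdk6-/- (0.33, adjusted p = 0.0284, with 0.07 on its other probe) and in Cdk6-K43M (0.55, adjusted p = 0.000986). Fbxo31 (0.57, adjusted p = 0.00518) and Fbxo4 (0.28, adjusted p = 0.0173), both F-box proteins that have been linked to cyclin D1 degradation, rose in Cdk6-K43M, and Ddb1, an adaptor of CUL4 ligases, fell (-0.27, adjusted p = 0.00469) but had 0.03 with median centring. The list medians were 0.00044 and 0.03.

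Of 10 upstream regulators of D-type cyclin genes 2 fell in Cdk6-/- (3.85% of all genes) and 3 in Cdk6-K43M (10.3% of all genes), none rose, and the list medians were -0.13 and -0.10 (0.07 in Cdk6-K43M with median centring). Myc fell by 0.45 in Cdk6-/- (SE 0.0969, adjusted p = 0.0255) and had 0.20 in Cdk6-K43M (adjusted p = 0.185); the difference of 0.67 between the genotypes did not pass (adjusted p = 0.112). Foxo3, a forkhead factor that is held inactive by AKT signalling, fell in both (-0.39, adjusted p = 0.0255, and -0.50, adjusted p = 0.0032), though not past the threshold in Cdk6-/- with median centring (adjusted p = 0.0758). In Cdk6-K43M the lymphoid zinc finger factors Ikzf1 (-0.30, adjusted p = 0.0121) and Ikzf3 (-0.48, adjusted p = 0.00171) also fell, and Ikzf1 did not pass with median centring (-0.10, adjusted p = 0.381).

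Of 13 RB and E2F genes, the targets and effectors of the pathway, 2 rose and 4 fell in Cdk6-/-, where 3.39% of all genes rose and 3.85% fell. In Cdk6-K43M 3 rose and 5 fell, where 9.79% of all genes rose and 10.3% fell. The list medians were -0.09 and -0.11 (0.07 in Cdk6-K43M with median centring). Rb1, which encodes the retinoblastoma protein, fell by 0.35 in Cdk6-/- (adjusted p = 0.0265) and by 0.38 in Cdk6-K43M (adjusted p = 0.00765). E2f1, an activating E2F, fell by 0.39 (adjusted p = 0.0242) and 0.42 (adjusted p = 0.00693), and E2f8, a repressive E2F, by 0.75 (adjusted p = 0.0432) and 1.3 (adjusted p = 0.00152). E2f7 fell on its brightest probe by 0.46 (adjusted p = 0.0187) and 0.30 (adjusted p = 0.0425), while its other probe had 0.04 and 0.06. E2f5 rose by 0.43 (adjusted p = 0.00706) and 0.34 (adjusted p = 0.00663), and E2f6 by 0.45 (adjusted p = 0.0145) and 0.51 (adjusted p = 0.00282). In Cdk6-K43M Tfdp1, the E2F partner DP1, also rose (0.24, adjusted p = 0.0436) and Rbl2, the RB relative p130, fell (-0.27, adjusted p = 0.0155). With median centring Rb1, E2f1 and E2f7 kept their sign but did not pass in either mutant, and neither did E2f8 in Cdk6-/- or Rbl2 in Cdk6-K43M. The comparisons with wild type share the wild-type pool, so values of like sign in the 2 mutants are not independent.

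None of 6 measured E- and A-type cyclins and their kinases passed against wild type. Ccne1, the cyclin E1 gene that acts after the D-type cyclins, had -0.25 in Cdk6-/- (adjusted p = 0.145), Ccna2, cyclin A2, had -0.17 in each mutant (adjusted p = 0.263 and 0.203, with -0.36 and -0.44 on its other probe), and Cdk2 had 0.15 in Cdk6-K43M (adjusted p = 0.133). Of 25 measured other CDKs and their cyclins 1 rose and 5 fell in Cdk6-/-, where 7.24% of all genes passed, and 3 rose and 6 fell in Cdk6-K43M, where 20.1% passed, with list medians of -0.05 and -0.0037 (0.19 in Cdk6-K43M with median centring). Cdk17, a kinase of the PCTAIRE group, rose by 0.58 (adjusted p = 0.00276) and 0.70 (adjusted p = 0.00035) on its brightest probe, with 0.10 to 0.22 on its other probes. The Mediator kinase gene Cdk8 (0.59, adjusted p = 0.00119, with 0.07 on its other probe) and its cyclin Ccnc (0.26, adjusted p = 0.0228, with 0.02 to 0.19 on its other probes) rose in Cdk6-K43M. Ccng1, cyclin G1, fell by 0.53 (adjusted p = 0.00605) and 0.46 (adjusted p = 0.00334), and Ccnb1, the mitotic cyclin B1, by 0.28 (adjusted p = 0.049) and 0.49 (adjusted p = 0.00184). Ccnf, cyclin F, fell by 0.30 (adjusted p = 0.023) and 0.34 (adjusted p = 0.00438), Ccnk, the cyclin of CDK12, by 0.23 (adjusted p = 0.0191) and 0.34 (adjusted p = 0.00102), and Cdk11b by 0.22 (adjusted p = 0.0198) and 0.34 (adjusted p = 0.000944). Cdk12 itself fell in Cdk6-K43M (-0.30, adjusted p = 0.00309, with -0.08 on its other probe). In Cdk6-/- and Cdk6-K43M the other probe had -0.184 and -0.185 for Ccnf, and -0.147 and -0.116 for Ccnk. The other probes of Ccnb1 had -0.297 to -0.294 and -0.285 to -0.229. With median centring Ccnb1, Ccnf, Ccnk, Cdk11b and Cdk12 kept the sign of each of these decreases but none of them passed.

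The genes whose ratios followed each of the 5 most closely were ranked by Pearson's r over the 8 single-sample arrays, among 12028 genes with a symbol, as a description without a test. For Cdk6 these were Slc4a1ap (r = 0.987), Pcgf3 (0.983) and Fam118b (0.98). For Cdk4 they were Timeless (0.97), Hypk (0.97) and Erh (0.967), and for Ccnd1 Vmn2r29 (0.959), Myg1 (0.957) and Rps6ka4 (0.953). For Ccnd2 they were Catsper1 (0.95), Pnma2 (0.935) and Eid3 (0.924), and for Ccnd3 Armc1 (0.962), Nxt2 (0.954) and Osbpl11 (0.943). The ratios of Slc4a1ap ran from -0.13 to 0.37 and those of Vmn2r29 from -0.26 to 0.18, narrower than those of Cdk6 and Ccnd1. Ratios of 1 array share its labelling and its wild-type channel. The highest of 12028 values of r over 8 arrays are large by selection alone, so these lists do not show shared regulation.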

How the data were processed

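The scanner files give spot and background intensity values from Feature Extraction 11.5.1.1 (Agilent), per the file headers, and also that software's processed signals, background subtracted and dye normalized. The authors also deposited log2 values that the name describes as loess normalized, with no background correction stated in the sources used here. Their 68 non-numeric values were set to missing. Median spot signals were processed in R 4.3.3 with limma 3.58.1 and, for reading, data.table (version 1.17.8): normexp background correction with offset 50, loess within arrays without control spots, and the mean of a probe's spots. Spots flagged as not uniform were left out, which left 185 missing probe values. RefSeq annotation of GRCm38.p6 named 58.3% of the probes by accession. A probe was kept if well above background on at least 3 of 4 samples of 1 genotype or in at least 5 wild-type channels, and each gene was represented by its brightest kept probe.

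Comparisons with wild type used all 10 arrays with a coefficient per genotype and 1 for dye (degrees of freedom 7 residual, 2.94 prior). The swapped pools repeat RNA of the same samples, so these standard errors may be low. The comparison between genotypes used the 8 single-sample arrays (6 and 2.86). Benjamini-Hochberg adjustment ran over 22008 genes, with a threshold of 0.05, and intervals are at 95%. The fits were tested on simulated data. Members and gene lists were chosen with earlier results of these data known. The text names the 5 genes, genes of the lists that passed (or up to 3 with the smallest p), the 3 genes most correlated with each of the 5 and a few markers. Alternatives covered background correction, centring, the dim filter, the choice of probe, slide, swapped arrays and single samples. Those without an offset, without 1 swapped pool, with slide as a fixed term and between probes of a gene were chosen after seeing the data.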

Additional observations from a re-analysis of the deposited data

Results flagged for a closer look

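Ccnd1 in Cdk6-K43M had 1 sample far from the others: the gap between replicate 4 (2.54) and the next sample (1.07) was 0.946 of the whole range, above Dixon's 95% critical value for 4 samples. Of 20 groups of samples examined, 1 probe in 1 genotype each, this was the 1 beyond that value, and chance gives about 1 in 20.

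The Ccnd2 probe A_65_P18532 minus the brightest Ccnd2 probe differed between the genotypes by 0.557 (limma adjusted p = 0.0323). This comparison was added after the values were seen. With any 1 sample left out it did not pass (limma adjusted p = 0.0523 to 0.101). Nor did it pass with Agilent's processed signals, the authors' deposited values, no offset, slide as a fixed term or a replicate block.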

How the results depend on the processing

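Of 369 values recomputed for the 5 genes, the counts of called genes and the kinase ratio, 317 kept their direction and side of the threshold. Against wild type, Cdk6 in Cdk6-/- no longer passed without the swapped arrays and dye term (-0.239), with widened standard errors (-0.411), with slide as a fixed term (-0.415) or without the Cdk6-K43M (-0.456) or the Cdk6-/- swapped pool (-0.305), and leaving out samples gave -0.468 to -0.383. The Cdk6 increase of Cdk6-K43M lost its call with widened errors (0.355), without an offset (0.513) or without its swapped pool (0.249). The Ccnd1 increase of Cdk6-K43M also lost its call with widened errors (1.45) or without that pool (1.39). Cdk4 was called without swapped arrays (-0.326 and -0.366) and turned sign in Cdk6-K43M with median centring (0.194) and the mean of probes (0.00158). Ccnd3 in Cdk6-K43M was called with median centring (0.591). Leaving out samples gave -0.0164 to 0.393 for Ccnd1 in Cdk6-/-, -0.622 to -0.346 for Ccnd2 and 0.179 to 0.351 for Ccnd3 in Cdk6-K43M. Between the genotypes Cdk6 passed with Agilent's processed signals (1.63), median centring (0.838) and all 10 arrays (0.765). Cdk4 turned sign with median centring (0.17) and the mean of probes (0.00734), as did Ccnd2 (0.025 and 0.000735), and Ccnd3 ran from -0.0645 to 0.21 over samples left out, below 0 without Cdk6-K43M replicate 1 or 3. The causes were not tested.

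The 1593 called genes in Cdk6-/- became 802 with median centring, 638 with slide as a fixed term, 3292 without swapped arrays, 130 with widened errors, 329 and 68 without the Cdk6-K43M or Cdk6-/- swapped pool, and 612 to 1931 over samples left out. The 4427 in Cdk6-K43M became 6367 with median centring, 5507 without swapped arrays, 1270 with widened errors and 535 and 2633 without either pool. The 113 between the genotypes became 73 with Agilent's processed signals, 33 with slide as a fixed term, 559 with all 10 arrays and 36 to 77 over samples left out. Same-numbered samples correlated at -0.066 to 0.228, so the replicate numbers were not taken to pair the samples; the replicate block left 37 called genes and changed no call of the 5 genes. Of 427 list medians, 18 moved, 10 of them with median centring. For the dim probes of Cdk6 and Ccnd1, the signal over background limits the size of the ratios.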
